A study of Mus musculus with 16 samples.

Results

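The collagen gene family was taken as every protein-coding gene of GENCODE release M21 with a symbol of the form Col, a number, a and a number, such as Col1a1. By this rule, which uses names alone, 44 genes were found among the 51060 genes to which the deposited transcripts could be joined, 22009 of them protein-coding. They were divided into 11 fibrillar collagens, 6 collagens of the basement membrane (type IV) and 27 other collagens. Of the 44 genes, 31 had enough reads to be tested, 9 fibrillar, 5 type IV and 17 other.

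Collagens are secreted proteins of the extracellular matrix whose chains wind around each other into a helix, and a glycine that recurs at a fixed interval lets the chains pack. Fibrillar collagens form the cable-like fibrils between cells, type IV collagen forms the sheet of the basement membrane that surrounds each adipocyte and each capillary, and the remaining types decorate fibrils, form beaded filaments or anchor one layer to another. In adipose tissue, fibroblasts and preadipocytes are known as a main source of fibrillar collagens, whereas adipocytes and endothelial cells lay down type IV collagen.

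Bulk RNA sequencing of BAT covered 16 mice, 4 females and 4 males of each genotype, all 7 weeks old. All mice carried the Opa1-flox allele on a C57Bl/6J background, and were kept at room temperature with free access to chow. OPA1 BKO mice (Cre+ in the labels, KO in the plots) also carried Cre recombinase driven by the Ucp1 promoter, so that Opa1 was deleted in thermogenic adipocytes and the other cells of BAT kept it, and their Cre- littermates served as WT controls. OPA1 is a protein of the inner mitochondrial membrane that is needed for mitochondrial fusion and cristae.

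Total estimated counts per mouse lay between 13607283 and 23114534. Opa1 was at 152 to 210 CPM in WT and at 17.9 to 36.9 CPM in OPA1 BKO mice, where CPM is the read count scaled to a common library total after TMM normalization. Brown adipocyte markers were abundant in every library, with a summed level of 14512 to 21771 CPM in WT mice and of 8525 to 14029 CPM in the OPA1 BKO group. The 8 markers did not all change in the same direction. Transcripts of the mitochondrial genome took 23.3% to 30.5% of the counts in WT mice, against 4.44% to 9.02% after deletion of Opa1. The choice of scaling moved all genes together: their median log2 fold change was 0.01 with TMM, 0.57 with library size alone and 0.22 with library size after the mitochondrial genome was left out. Relative to that median, 0 of 31 collagens changed sign with library size alone and 0 of 30 with the mitochondrial genome left out. This follows from a shift shared by all genes and does not test the direction of any collagen. All fold changes below use TMM and are therefore relative to the typical gene. In bulk tissue, fewer cells of a type and less RNA per cell cannot be told apart.

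The classes differ in part in the coding sequence itself. In each collagen's longest coding transcript of GENCODE M21, the runs of successive triplets that start with a glycine codon (GGN) were counted. The 11 fibrillar collagens held a longest run of 216 to 344 such triplets, with a median of 338, and the 6 type IV collagens a longest run of 39 to 66 but 23 to 27 separate runs of at least 3 triplets. The 27 other collagens had a longest run of 23 to 113 and 2 to 23 separate runs, which overlaps the type IV class (Col16a1, with a longest run of 52 and 23 runs, lies within it). The pieces below are shown because they contrast the unbroken repeat of a fibrillar chain with the interrupted repeat of a basement membrane chain, and because Col18a1 and Col20a1 are the members with the highest and the lowest fold change; capitals mark the glycine codon of each triplet within a run. They run 5′ to 3′ on the coding strand of GRCm38, and all but that of Col18a1 span an exon junction.
Col3a1 (codons 164 to 184, within chr1:45323762-45325386, plus strand): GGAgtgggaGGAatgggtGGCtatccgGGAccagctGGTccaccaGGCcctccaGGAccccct
Col1a1 (codons 168 to 188, within chr11:94939451-94939912, plus strand): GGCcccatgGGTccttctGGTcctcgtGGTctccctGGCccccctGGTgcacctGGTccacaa
Col4a1 (codons 148 to 177, within chr8:11244507-11245084, minus strand): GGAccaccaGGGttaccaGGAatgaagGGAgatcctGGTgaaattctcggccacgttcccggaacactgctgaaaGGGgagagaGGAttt
Col18a1 (codons 953 to 973, chr10:77077684-77077746, minus strand): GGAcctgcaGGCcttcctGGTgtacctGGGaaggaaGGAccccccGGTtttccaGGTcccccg
Col20a1 (codons 1168 to 1188, within chr2:181013154-181013289, plus strand): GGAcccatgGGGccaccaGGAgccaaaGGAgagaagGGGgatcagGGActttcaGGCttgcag
In Col3a1 the repeat goes on for 344 triplets from codon 164, whereas in Col4a1 the longest run of 40 triplets ends inside the printed piece and the repeat resumes after a stretch without the pattern. Col18a1 and Col20a1 hold short helices, with longest runs of 30 and 32 triplets.

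Compared per transcript length, in TPM, the family was uneven. Col4a1 (mean over the 16 mice 155 TPM) and Col3a1 (151 TPM) were highest in the mean of both genotypes, followed by Col4a2 (93.3 TPM), and then by Col1a2 (35.6 TPM), Col6a2 (31.2 TPM), Col6a1 (30.8 TPM), Col15a1 (28.1 TPM), Col6a3 (27.7 TPM), Col1a1 (23.7 TPM), Col5a3 (23.4 TPM) and Col27a1 (21.9 TPM). The order of the first pair depended on genotype. In WT mice Col4a1 was at 116 ± 22.9 TPM (SD, n = 8) and Col3a1 at 82.4 ± 23.6, and Col4a1 exceeded Col3a1 within 8 of 8 mice. In OPA1 BKO mice they were at 194 ± 24.2 and 220 ± 54.4 TPM, and Col4a1 exceeded Col3a1 within 3 of 8 mice. The values of neighbours from Col6a2 down to Col27a1 overlapped. These sums include short or intron-retaining transcripts. A retained-intron transcript took 57.1% of the TPM of Col6a3 and 87.4% of that of Col26a1. In Col7a1 such transcripts took 54.3%, 15.2% and 13.7%. In Col27a1, 26.0% fell on a transcript annotated as nonsense-mediated decay and 19.3% on a processed transcript. In Col3a1, 40.4% fell on Col3a1-205 beside 53.4% on Col3a1-201. On log2(TPM + 0.5) the median of all genes was higher by 0.87 in OPA1 BKO mice, so genes were compared in TPM only within a mouse or a genotype.

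The make-up of collagen RNA within a mouse, which needs no scaling between mice, shifted between the classes. Fibrillar collagens held 35.4% ± 2.51 (SD, n = 8) of collagen TPM in WT and 43.2% ± 3.50 in OPA1 BKO mice, with ranges of 31.4% to 38.2% and 38.6% to 47.4% that did not overlap. Type IV collagens went the other way, from 42.3% ± 2.80 to 34.9% ± 4.56, with ranges of 39.3% to 46.6% and 27.3% to 39.8% that overlapped in their margins. The other collagens held 22.2% ± 0.855 and 21.9% ± 1.55. Col3a1 alone took 18.4% ± 1.62 of collagen TPM in WT and 23.97% ± 3.34 in OPA1 BKO mice. These shares are descriptions without a test.

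Across genotypes, 6 collagens were higher and 7 lower in OPA1 BKO than in WT mice (edgeR's quasi-likelihood test, adjusted p under 0.05 over 15632 genes), and 18 did not pass. In all genes tested, 20.8% were called higher and 20.2% lower, so the 13 collagens called of 31 are about the share of the background, and their number is no result about the family. The median log2 fold change of the 31 collagens was 0.08, beside 0.01 for all genes. Without the KO female S10, 10 collagens were higher. By class, 4 fibrillar collagens were higher and 1 lower, 1 type IV collagen was higher and 1 lower, and 1 other collagen was higher and 5 lower. Without any 1 of S03, S05, S07, S11 or S14, 2 fibrillar collagens were higher, and without S04, S06 or S09 none was lower. A difference between the classes was not tested. The median log2 fold change was 0.37 for the fibrillar, -0.17 for the type IV and 0.08 for the other collagens. The counts moved with the scaling as those of all genes did: with library size alone, 17 collagens were called higher and 1 lower, beside 69.5% and 2.39% of all genes, and with the mitochondrial genome left out before scaling by library size 10 were higher and 4 lower, beside 39.1% and 8.63%.

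**Figure D1:**
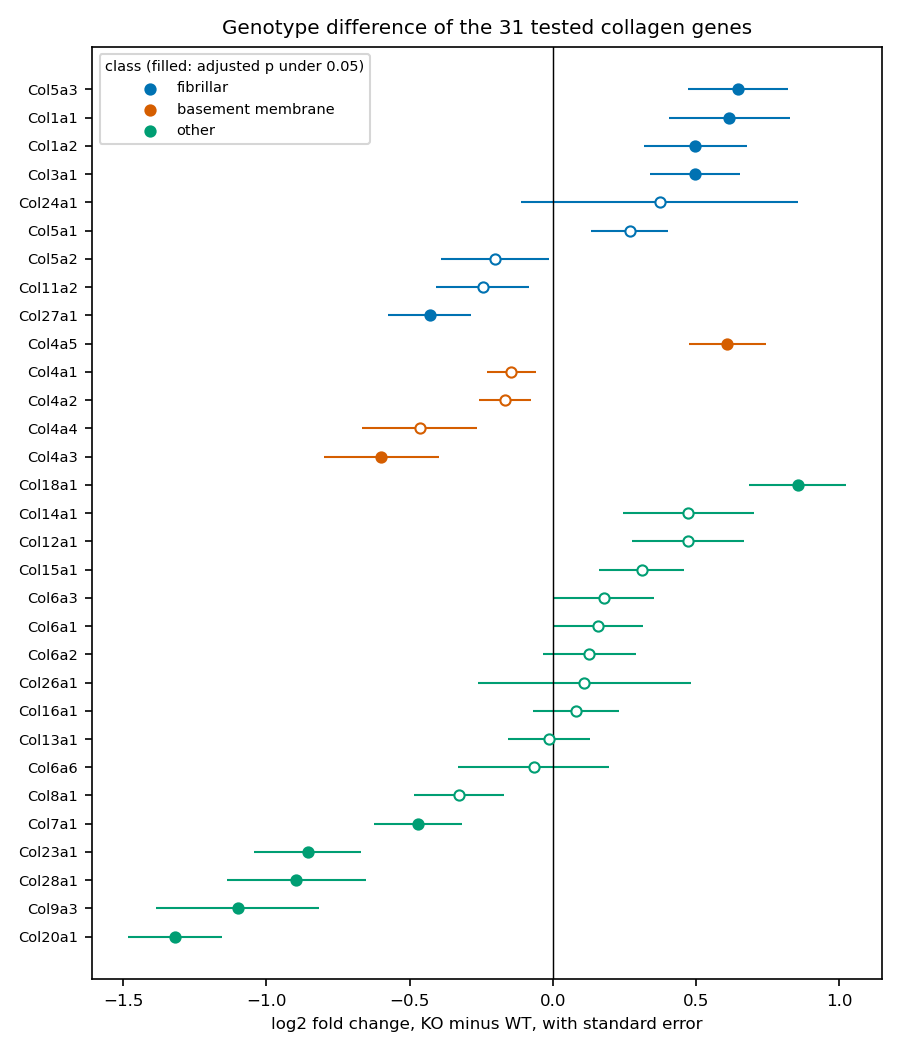
Log2 fold change of OPA1 BKO (KO) minus WT mice for each tested collagen gene, with its standard error, ordered by class on the vertical axis, from edgeR on 8 mice per genotype. Filled points passed an adjusted p of 0.05. Col18a1 (0.85) is the highest and Col20a1 (-1.32) the lowest, and the fibrillar class lies mostly to the right of zero.

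Among the fibrillar collagens, the chains of the main fibril of soft tissue rose. Col3a1, the chain of type III collagen, was at 238, 285 and 403 CPM (lowest, median and highest) in WT and at 276, 412 and 599 CPM in OPA1 BKO mice. Of the 8 OPA1 BKO mice, 5 lay above every WT mouse, and the groups overlapped. Its log2 fold change was 0.50 ± 0.16 (SE), with an adjusted p = 0.0176 (edgeR).

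Col1a2, which encodes the α2 chain of type I collagen, was at 88.5, 107 and 157 CPM in WT and at 95.9, 155 and 249 CPM in OPA1 BKO mice (log2 fold change 0.50 ± 0.18, adjusted p = 0.0342). Col1a1, the α1 chain, was at 57.3, 78.8 and 113 CPM in WT and at 63.9, 115 and 233 CPM in OPA1 BKO mice (log2 fold change 0.62 ± 0.21, adjusted p = 0.0278). In each of these genes 4 of 8 OPA1 BKO mice lay above every WT mouse, the KO male S12 was highest and the KO female S10 lay within the WT range. The calls of the type I chains were close to the threshold. Without S03, S05, S07, S11 or S14 the adjusted p of Col1a1 lay between 0.0519 and 0.0612 at log2 fold changes of 0.54 to 0.58. Without any of these, S12 or S15 that of Col1a2 lay between 0.0517 and 0.0772 at log2 fold changes of 0.36 to 0.50.

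Col5a3, a chain of type V collagen, a minor partner of the type I fibril, was at 64.4, 77.1 and 103 CPM in WT and at 84.0, 118 and 215 CPM in OPA1 BKO mice. Of the 8 OPA1 BKO mice, 6 were above every WT mouse, and the KO male S16 was highest. The log2 fold change of 0.65 ± 0.17 had an adjusted p = 0.00748. The other type V chains did not pass, with Col5a1 at a log2 fold change of 0.27 ± 0.14 and Col5a2 at -0.20 ± 0.19 (adjusted p = 0.410).

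Col27a1, the chain of a thin-fibril collagen best known from cartilage, was the fibrillar member that fell. It was at 82.3, 104 and 140 CPM in WT and at 53.9, 79.9 and 101 CPM in OPA1 BKO mice, and all 8 OPA1 BKO mice lay below the WT median. Its log2 fold change was -0.43 ± 0.14, with an adjusted p = 0.0255. Without S04, S06 or S09 the adjusted p lay between 0.0502 and 0.0556, and with S04 and S06 left out together the call was lost. Col11a2 (log2 fold change -0.24 ± 0.16) and Col24a1 (0.37 ± 0.48) were not called, and Col24a1 rested on 2 to 24 counts per mouse.

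**Figure D2:**
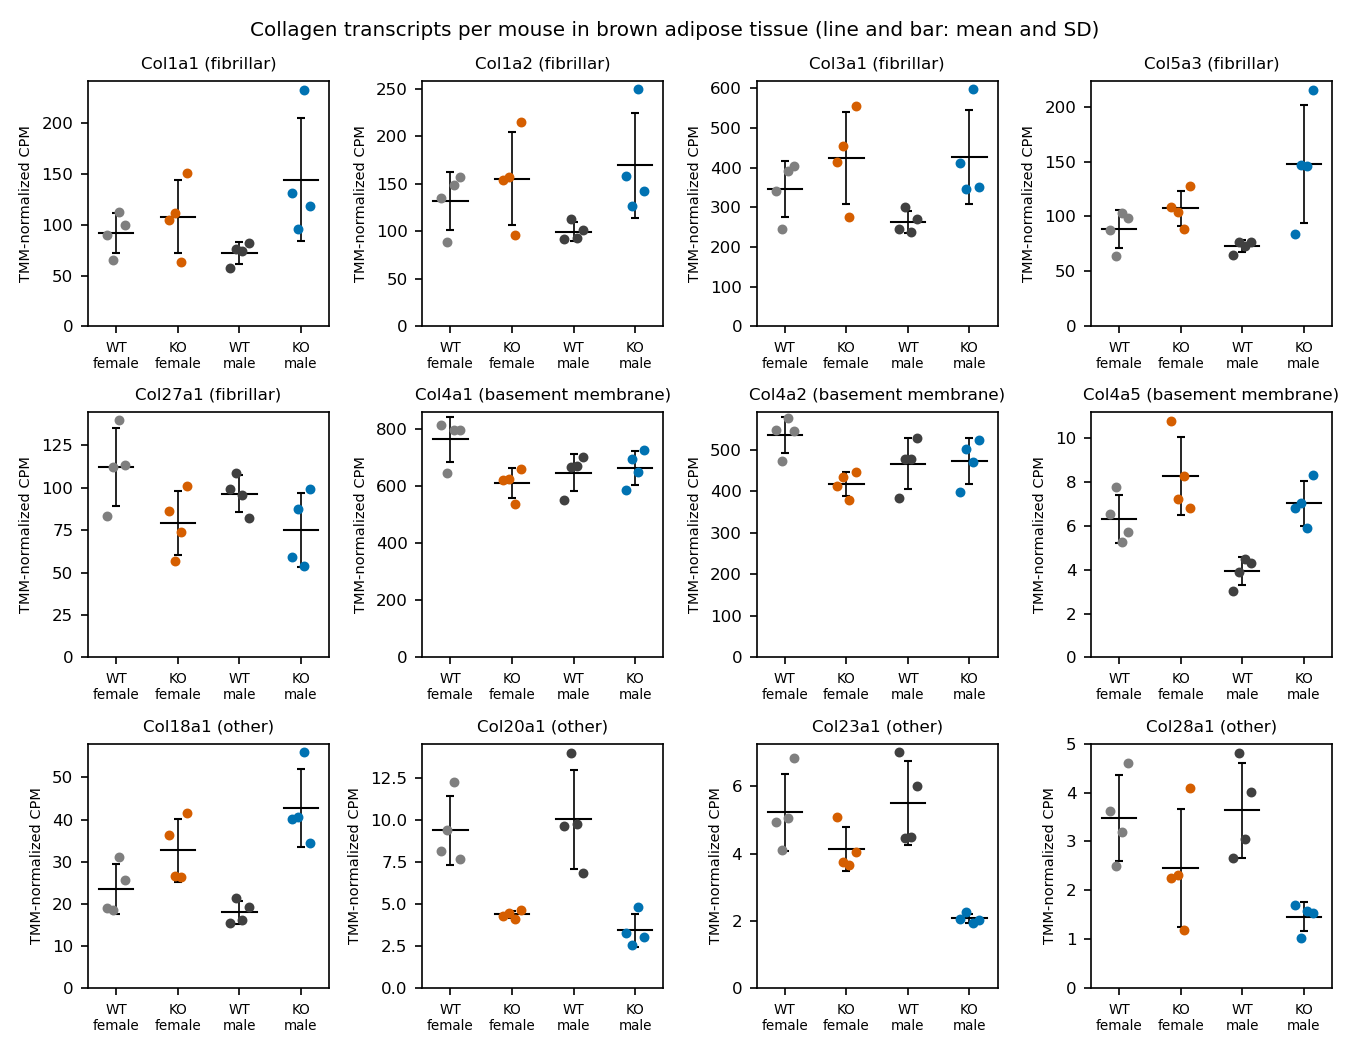
TMM-normalized CPM of 12 collagen genes in each mouse, by genotype and sex, with the mean and SD of 4 mice. Col20a1 is the gene whose OPA1 BKO mice (2.61 to 4.86 CPM) all lie below the WT mice (6.85 to 14 CPM), and KO males of Col23a1 sit together between 1.95 and 2.28 CPM.

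Basement membrane collagen is built from Col4a1 and Col4a2, which make the common type IV network. Col4a1 was at 551, 687 and 816 CPM in WT and at 538, 638 and 727 CPM in OPA1 BKO mice (log2 fold change -0.14 ± 0.09, adjusted p = 0.197). Col4a2 was at 383, 504 and 577 CPM in WT and at 380, 440 and 524 CPM in OPA1 BKO mice (log2 fold change -0.17 ± 0.09, adjusted p = 0.151). Neither passed the test over both sexes, and the ranges of the genotypes overlapped.

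The pair lies head to head on chromosome 8, and the first 22 bases of the genes overlap on opposite strands. The stretch over both starts is shown because the pair shares it (GRCm38, chr8:11312801-11312830, plus strand, from RefSeq promoter windows, with the overlap of the annotated genes in capitals).
Col4a2 and Col4a1 starts: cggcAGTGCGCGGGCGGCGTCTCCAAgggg
A second type IV pair is arranged in the same way. Between the starts of Col4a4 on the minus strand and Col4a3 on the plus strand lie 71 bases of chromosome 1 (GRCm38, chr1:82586850-82586920, plus strand).
Col4a4 to Col4a3: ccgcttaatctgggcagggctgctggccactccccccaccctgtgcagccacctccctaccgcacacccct

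Col4a3 and Col4a4, which together with Col4a5 form the network known from kidney glomerulus and lung, were at low levels. Col4a3 was at 0.795, 1.41 and 2.49 CPM in WT and at 0.784, 1.05 and 1.14 CPM in OPA1 BKO mice (log2 fold change -0.60 ± 0.20, adjusted p = 0.0242). All 8 OPA1 BKO mice lay below the WT median, on 13 to 40 counts per mouse. Without S13 or S15 the adjusted p was 0.0555 or 0.0573, and the gene shares 5.08% of its 31-base words with other genes, 2.59% with C430014B12Rik on the opposite strand, so its count is uncertain. Col4a4 had a log2 fold change of -0.47 ± 0.20 and an adjusted p = 0.0741.

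Col4a5, the X-linked chain of that network, went up. It was at 3.05, 4.87 and 7.77 CPM in WT and at 5.90, 7.15 and 10.8 CPM in OPA1 BKO mice, and all 8 OPA1 BKO mice exceeded the WT median. The log2 fold change was 0.61 ± 0.14, with an adjusted p = 0.00193. Its neighbour Col4a6, 1309 bases away and also head to head, had at most 5.5 counts in a mouse and was not tested.

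Of the other collagens, the multiplexin Col18a1 rose most. Col18a1 is a basement membrane proteoglycan core whose C-terminal fragment is endostatin. It was at 15.6, 19.1 and 31.2 CPM in WT and at 26.3, 38.3 and 56.0 CPM in OPA1 BKO mice, and 6 of 8 OPA1 BKO mice were above every WT mouse. The log2 fold change was 0.85 ± 0.17, a fold of 1.81, with an adjusted p = 0.000792. The gene overlaps Slc19a1 on the opposite strand by 8825 bases. The related multiplexin Col15a1 was at 39.5, 55.1 and 96.9 CPM in WT and at 63.7, 71.9 and 94.1 CPM in OPA1 BKO mice, and its log2 fold change of 0.31 ± 0.15 did not pass (adjusted p = 0.105).

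The type VI chains, which form beaded filaments around adipocytes, were abundant and did not pass the test. Col6a1 was at 65.2, 86.9 and 122 CPM in WT and at 71.7, 91.8 and 156 CPM in OPA1 BKO mice (log2 fold change 0.16 ± 0.16.) Col6a2 was at 69.9, 85.2 and 118 CPM in WT and at 69.4, 91.0 and 159 CPM in OPA1 BKO mice (log2 fold change 0.13 ± 0.16.) Col6a3 was at 57.8, 75.4 and 119 CPM in WT and at 69.1, 86.9 and 131 CPM in OPA1 BKO mice (log2 fold change 0.18 ± 0.17.) Their adjusted p lay between 0.431 and 0.562, and the genotypes overlapped in each. Col6a6 was at a log2 fold change of -0.07 ± 0.26.

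Col20a1 had the largest difference of the family. It belongs to the FACIT collagens, which carry interrupted helices and attach to fibrils, and its own function is little known. It was at 6.85, 9.56 and 14 CPM in WT and at 2.61, 4.22 and 4.86 CPM in OPA1 BKO mice, so every OPA1 BKO mouse lay below every WT mouse. Its log2 fold change was -1.32 ± 0.16, with an adjusted p = 1.29e-05. It was the only collagen without overlap between the genotypes, and of all genes tested 4.89% had all OPA1 BKO mice below and 5.07% all above the WT mice.

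Other FACIT members differed among themselves. Col9a3, a chain of type IX collagen known from cartilage, was at 0.415, 0.989 and 2.14 CPM in WT and at 0.247, 0.515 and 0.697 CPM in OPA1 BKO mice (log2 fold change -1.10 ± 0.28, adjusted p = 0.00553). That gene had only 5 to 28 counts per mouse and shares 5.35% of its 31-base words with Tcfl5, which overlaps it on the opposite strand. Its partner chains Col9a1 and Col9a2 had at most 1 and 2 counts in a mouse. Col12a1, found at the surface of type I fibrils, was at a log2 fold change of 0.47 ± 0.19 (adjusted p = 0.0621), Col14a1, of the same kind, at 0.47 ± 0.23 (adjusted p = 0.110) and Col16a1 at 0.08 ± 0.15 (adjusted p = 0.692).

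The remaining calls were lower in OPA1 BKO mice and concerned genes at low levels. Col23a1, a transmembrane collagen, was at 4.10, 5.0 and 7.02 CPM in WT and at 1.95, 2.96 and 5.10 CPM in OPA1 BKO mice (log2 fold change -0.86 ± 0.19, adjusted p = 0.0017). Col28a1, a collagen reported around peripheral nerve, was at 2.51, 3.41 and 4.81 CPM in WT and at 1.03, 1.64 and 4.09 CPM in OPA1 BKO mice (log2 fold change -0.90 ± 0.24, adjusted p = 0.00752). In each, 7 of 8 OPA1 BKO mice lay below every WT mouse. Col7a1, the chain of the anchoring fibril of skin, was at 7.02, 9.77 and 10.9 CPM in WT and at 4.44, 6.24 and 9.86 CPM in OPA1 BKO mice (log2 fold change -0.47 ± 0.15, adjusted p = 0.0224). Col8a1 (-0.33 ± 0.16), Col13a1 (-0.01 ± 0.14) and Col26a1 (0.11 ± 0.37) were not called.

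Of the 44 members, 13 were too low to test. Col2a1, Col4a6, Col6a4, Col9a1, Col9a2, Col10a1, Col17a1, Col19a1 and Col25a1 had at most 7 counts in any mouse, Col11a1 at most 15, Col22a1 at most 10.2 and Col8a2 at most 16. Col6a5 was at 0 to 19 counts in 14 mice but at 50.4 counts in S02 and 211 in S06, both KO females. Of its 31-base words, 3.98% also occur in other collagens.

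Ratios between chains within a mouse do not depend on the scaling, and 8 of the 10 planned ratios had at least 10 counts for both genes in every mouse. Col4a1, the main basement membrane chain, was set against Col1a1, the α1 chain of type I collagen, in TPM. Their ratio was 8.31, 9.52 and 11.6 (lowest, median and highest) in WT and 3.15, 6.04 and 9.29 in OPA1 BKO mice. In 7 of 8 OPA1 BKO mice it lay below every WT mouse, and the KO female S10 lay within the WT range. The geometric mean dropped from 9.77 to 5.75, a log2 difference of -0.76 with an adjusted p = 0.00622 (exact two-sided permutation test of 8 against 8 mice, Benjamini-Hochberg over 8 ratios). Within females the log2 difference was -0.52 (exact permutation p = 0.114) and within males -1.0 (exact permutation p = 0.0286, the smallest that 4 against 4 mice allow).

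The ratio of Col5a1 to Col5a2, the chains of the common type V trimer, was 0.483, 0.633 and 0.871 in WT and 0.717, 0.952 and 1.17 in OPA1 BKO mice, so the groups overlapped. Its geometric mean rose from 0.634 to 0.916, a log2 difference of 0.53 with an adjusted p = 0.00932 by the same exact permutation test. These 2 ratios passed also with estimated counts, with protein-coding transcripts alone and without any single mouse.

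The chains of a common trimer otherwise kept their ratio within the spread between mice. Col4a1 to Col4a2 had a geometric mean of 1.68 in WT and 1.65 in OPA1 BKO mice, with a log2 difference of -0.02 (adjusted p = 0.801, exact permutation test). Col1a1 to Col1a2 went from 0.626 to 0.666 (adjusted p = 0.590, exact permutation test), Col6a1 to Col6a2 from 0.973 to 0.995 and Col6a3 to Col6a1 from 0.922 to 0.878. Outside the common trimers, Col3a1 to Col1a1, chains of type III and type I collagen, was 6.82 and 6.40. Col4a3 to Col4a4 ranged from 0.790 to 28.4 among WT mice, where S15 stood apart, and could not show a difference. A p over the threshold does not show that a ratio was equal.

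**Figure D3:**
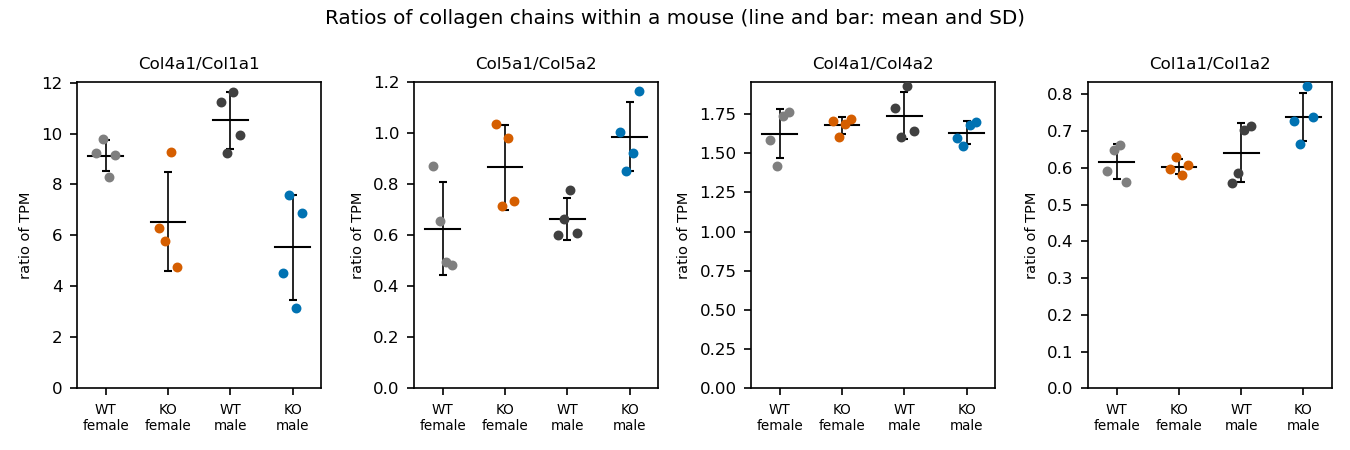
Ratio of TPM between pairs of collagen chains in each mouse, by genotype and sex, with mean and SD of 4 mice. The genotypes overlap in each panel. The median of Col4a1/Col1a1 is 6.04 in OPA1 BKO and 9.52 in WT mice, and that of Col5a1/Col5a2 is 0.952 and 0.633.

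The share of a gene's TPM on its main transcript was compared for the 8 collagens with a mean of at least 5 TPM and 2 or more transcripts of at least 10% each. The lowest adjusted p was 0.314, for Col18a1 and Col5a1 (exact permutation test, 8 against 8 mice). Col18a1-202 held 70.8% ± 8.44 of Col18a1 TPM in WT and 62.3% ± 6.94 in OPA1 BKO mice (unadjusted p = 0.0457, exact permutation test). For Col3a1-201 the shares were 53.6% ± 4.64 and 53.6% ± 3.27, and for Col4a1-201 76.9% ± 8.16 and 80.5% ± 3.99.

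The sexes gave different numbers of calls. In males 10 collagens were higher in OPA1 BKO than in WT mice and 5 lower, beside 17.9% and 16.9% of all genes. Without S03 or S11, both WT males, 5 were higher, and without S12, a KO male, 6 were. In females 0 were higher and 3 lower by edgeR, beside 8.96% and 9.03% of all genes. In edgeR, 8 collagens (25.8%) had an unadjusted p under 0.05 in females, beside 31.9% of all genes. Of these, 2 were higher, Col4a5 and Col18a1, and the others lower. DESeq2 also called 0 higher, beside 1673 of 16004 genes. Col20a1 was called in both sexes, with -1.09 on the log2 scale in females (adjusted p = 0.00355) and -1.55 in males (adjusted p = 0.000103).

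The 10 collagens higher in males were Col1a1 (log2 fold change 1.00, adjusted p = 0.0105), Col1a2 (0.76), Col3a1 (0.70), Col5a1 (0.52), Col5a3 (1.02), Col4a5 (0.84), Col18a1 (1.24, adjusted p = 0.000264), Col15a1 (0.65), Col6a3 (0.60) and Col12a1 (0.80). In females the same genes lay between -0.23 for Col6a3 and 0.47 for Col18a1. In females 2 type IV chains were called lower by edgeR. Col4a1 fell by 0.32 (adjusted p = 0.0462) and Col4a2 fell by 0.36 (adjusted p = 0.0379) on the log2 scale. In males these chains were at 0.04 and 0.02. Col4a3 (-0.51), Col4a4 (-0.61) and Col4a5 (0.39) were not called in females. WT females were at 648 to 816 CPM of Col4a1 and KO females at 538 to 659 CPM. These female calls were close to the threshold and held in 5 (Col4a1) and 10 (Col4a2) of the 16 fits without a mouse. Without S01, S02, S09, S10 or S13, Col20a1 was the 1 collagen called lower in females.

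The difference between the sexes was itself tested. The interaction of genotype and sex was called for 0 collagens by edgeR, beside 0.115% of all genes. At an unadjusted p under 0.05 there were 8 collagens (25.8%), beside 13.1% of all genes. The lowest adjusted p was 0.101, for Col23a1, which was at a log2 fold change of -0.34 in females and -1.40 in males. DESeq2 called this interaction (adjusted p = 0.0291), beside 252 genes with a positive and 120 with a negative interaction of 14199. By DESeq2, 11 collagens had an unadjusted p under 0.05, without a share of all genes to set beside them. For the collagens named above, a difference between the sexes in response to the deletion was therefore not shown by edgeR. The signed log2 fold change was higher in males for 22 of the 31 collagens, beside 7943 of 15632 genes. Among the 22 are collagens that fell less in males, such as Col7a1 at -0.61 in females and -0.33 in males.

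**Figure D4:**
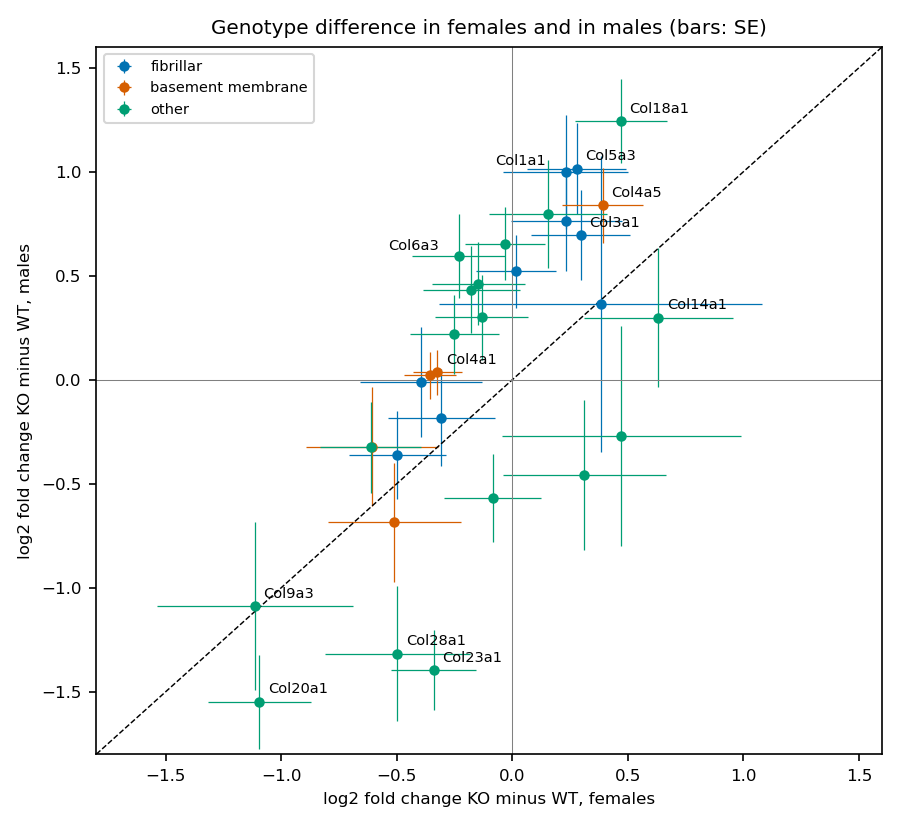
Log2 fold change of OPA1 BKO (KO) minus WT in females (horizontal) and in males (vertical) for each tested collagen, with standard errors, coloured by class. The dashed line marks equal values. 22 of 31 points lie above it, and Col23a1 (-0.34 and -1.40) lies far below.

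WT males and WT females were compared as well. Of the 31 collagens, 21 were lower and 10 higher in WT males, beside 7658 of 15632 genes that were higher. By edgeR 0 collagens passed, beside 0.23% of all genes. At an unadjusted p under 0.05 there were 5 (16.1%), about the 16.5% of all genes. DESeq2 called Col4a5, Col6a3 and Col15a1, at log2 differences of -0.69, -0.74 and -0.66, beside 364 genes higher in males and 175 lower of 11796. By DESeq2, 8 collagens had an unadjusted p under 0.05, again without a share of all genes to set beside them. Between KO males and KO females, edgeR called Col13a1, a transmembrane collagen, higher in males by 0.77 (adjusted p = 0.0358) and Col23a1 lower by a log2 difference of -0.99 (adjusted p = 0.0123), beside 3.85% of all genes. Col23a1 was at 3.65 to 5.10 CPM in KO females and 1.95 to 2.28 CPM in KO males, without overlap.

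The start regions were searched for known promoter motifs. Windows from 250 bases before to 50 after the start were present for 35 of the 44 collagens (38 windows, RefSeq, GRCm38.p6), and motifs were sought on both strands. The motifs were chosen with the results known. The GC box GGGCGG was in 60.5% of collagen windows and in 35.7% of all 32851 windows. The CCAAT box was in 34.2% and 37.4%, TATAAA in 13.2% and 13.62%, and CAGAC, a short SMAD-binding word, in 52.6% and 49.6%. The AP-1 word TGANTCA was in 1 collagen window, that of Col6a1, beside 7.81% of all. The composite C/EBP-ATF word TGATGNAAT was in 0 of 38, beside 0.965% of all windows. A match is only a match of letters.

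The machinery around collagens was followed in 8 lists of partners, chosen with earlier results known. Their counts stand beside the 20.8% of all genes called higher and 20.2% lower, and no list was tested against it. Of 14 tested enzymes that modify prolines and lysines of the chains, 1 rose and 4 fell (median log2 fold change -0.08). P4hb, a subunit of prolyl 4-hydroxylase and a disulfide isomerase, rose by 0.30, and Plod2 and Crtap, a lysyl hydroxylase and a helper of prolyl 3-hydroxylation, were at -0.71 and -0.27. Of 10 genes of folding and export, 4 rose and the others did not pass (median 0.17). Sec24d, a coat protein of the vesicles that carry procollagen, was at 0.85, and Creb3l1, a transcription factor that activates type I collagen genes in bone, at 0.62, with all OPA1 BKO above all WT mice.

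Of 12 tested genes of propeptide cleavage and cross-linking, 1 rose and 1 fell (median 0.14). Loxl1, a lysyl oxidase, was at 0.86 and Pxdn, the peroxidase that cross-links type IV collagen by sulfilimine bonds, at -0.80, with 50.5 to 97.0 CPM in OPA1 BKO and 100 to 154 CPM in WT mice. Of 13 fibril partners, 2 rose and 3 fell (median 0.07), with Fn1 (fibronectin) at 0.83, Lum (lumican) at 0.65, Fbln1 at -0.65 and Tnxb at -0.47.

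Among 15 other components of the basement membrane, 3 rose and 5 fell (median -0.16). Lama5 and Lamb1, chains of the common laminins, were at -0.75 and -0.49. The laminin chain Lamc1 went the other way, at 0.39, with all OPA1 BKO above all WT mice. Lama1, the laminin chain of early embryonic basement membrane, had at most 1 count in a WT mouse and 10 to 205 counts in OPA1 BKO mice (adjusted p = 4.26e-08). Of 11 tested genes of collagen breakdown and its inhibitors, 3 rose and 3 fell (median 0.23). The inhibitors Timp1 and Timp4 were at 1.90 and -0.83, and the proteases Ctsk and Mmp9 at 0.83 and -0.93. Timp1 had at most 14 counts in a WT mouse. Of 8 tested collagen receptors, 2 rose and 2 fell (median 0.24). Ddr1 and Ddr2, the tyrosine kinases that bind collagen, were at 1.63 and 0.51, and the integrin chains Itga1 and Itga10 at -0.47 and -0.41. Of 13 genes of TGF-beta signalling, 2 rose and 2 fell (median 0.00), with Smad2 at 0.51, Smad4 at 0.34, Smad7 at -0.54 and Tgfbr2 at -0.46.

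**Figure D5:**
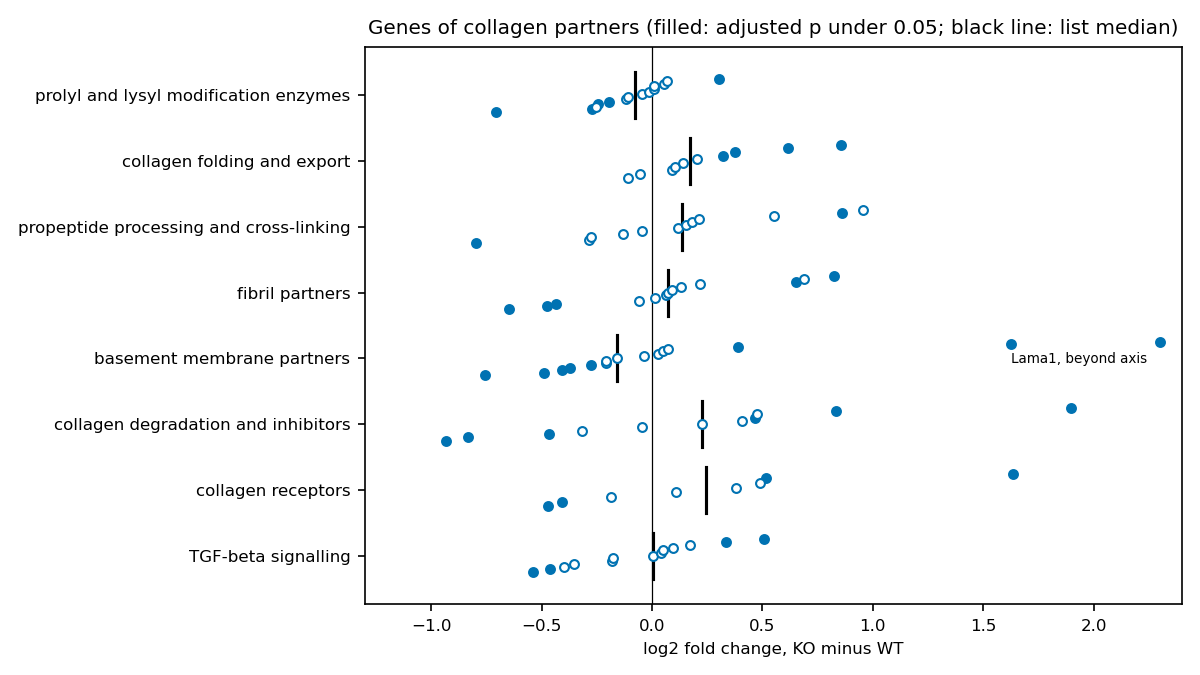
Log2 fold change of OPA1 BKO (KO) minus WT for the tested genes of the 8 partner lists, with the list median as a black line. Filled points passed an adjusted p of 0.05, and Lama1 is drawn at the edge. Medians lie between -0.16 and 0.24.

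Lists of cell type markers were followed as well. Their counts stand beside the 20.8% of all genes called higher and 20.2% lower, and no list was tested against these shares. Of 8 brown adipocyte markers, whose sum is given above, 1 rose and 3 fell, and the others did not pass. Pparg was at a log2 fold change of 0.47, and Adipoq, Fabp4 and Cidea were at -1.38, -0.80 and -0.43. Of 8 fibroblast and preadipocyte markers 2 rose and the others did not pass, and their summed level was 169 to 240 CPM in WT and 165 to 265 CPM in OPA1 BKO mice. Of 8 endothelial markers 5 fell, from a sum of 1101 to 1551 CPM to 876 to 1146 CPM, and of 8 pericyte and smooth muscle markers 6 fell, from 657 to 927 CPM to 605 to 700 CPM. Of 8 macrophage markers 7 rose, from 61.3 to 90.9 CPM to 75.5 to 230 CPM. The Schwann cell list had 1 of 8 higher, with 112 to 186 CPM in WT and 143 to 274 CPM in OPA1 BKO mice, and the lymphocyte list 1 higher and 3 lower, with 10.5 to 17.6 and 12.8 to 19.6 CPM. Of 8 cartilage markers 2 were tested and Sox9 rose. Skeletal muscle markers, whose differences did not pass the test, took 1.84% of the counts of S04 and 1.36% of those of S06, and at most 0.513% elsewhere. The part of these cells in the collagen differences was not tested. Without S04 and S06, 5 collagens were higher and 6 lower, Col1a2 and Col27a1 no longer passing.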

How the data were processed

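Polyadenylated RNA of 16 BAT samples was sequenced from stranded libraries. For each mouse the authors deposited Kallisto 0.45.0 output (mm10 named in the submitters' processing notes), with an estimated count per transcript, not normalized, and a TPM. Whether counting used strand is not given in the sources used here. Transcripts were joined to GENCODE M21 by identifier without version (133284 of 135308 matched, the others holding 0.483% to 0.730% of counts) and summed per gene. Estimated counts were rounded, filtered by filterByExpr (minimum count 10, minimum total 15) and tested with edgeR 4.0.16 (TMM, quasi-likelihood, sex as a term, prior count 0.125, R 4.3.3), with Benjamini-Hochberg adjustment over 15632 genes. The sexes, interaction and sex differences came from a model with 1 mean per group. Scripts were tested on simulated data. Members, lists and tests were chosen with earlier results of these data known. By rule, Opa1 and all tested collagens were named, in full the 4 of each class with the highest mean TPM and those called with an absolute log2 fold change of at least 1, and of each partner list the 2 called genes with the largest change each way. A gene of the basement membrane list is not reported here. Full values of the other called collagens, and Lamc1, were added after their values were seen. Alternatives were DESeq2 1.42.0, limma 3.58.1 on log2(TPM + 0.5), other scalings, filters and gene totals, and each mouse left out.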

Additional observations from a re-analysis of the deposited data

Results flagged for a closer look

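Each measure was examined in each group of 4 mice, 172 groups in all, for a mouse whose gap to its nearest neighbour exceeded Dixon's 95% critical value for 4 samples as a part of the group's range, and 8 were found, which is 4.65%. Chance gives about 1 in 20. In WT females, S05 was lowest for Col4a1 (648 CPM against 797 to 816 in the others), for Col6a2 (81.0 against 114 to 118 CPM) and for Col6a3 (73.0 against 113 to 119 CPM). Among WT males, S15 was highest for Col4a3 (2.49 against 1.29 to 1.45 CPM) and for the log2 ratio of Col4a3 to Col4a4 (4.83 against 0.19 to 0.91), S11 was lowest for Col5a2 (34.6 against 49.1 to 50.7 CPM), and S07 was highest for Col6a3 (77.7 against 57.8 to 60.7 CPM). In KO females, S06, a mouse with 1.36% of its counts on skeletal muscle markers, was highest for Col26a1 (1.18 against 0.483 to 0.566 CPM). No collagen had an interaction of genotype and sex under the threshold in edgeR, and none was separated in opposite directions in the sexes.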

How the results depend on the processing

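No paired analysis was possible because the labels number the mice from 1 to 16 and no number is shared between groups. Scaling moved all genes together. Their median log2 fold change was 0.57 with library size alone, 0.22 with the mitochondrial genome left out and 0.87 with limma on TPM. The collagen counts below stand beside the calls among all genes. Library size alone called 69.5% of all genes higher and 2.39% lower (females 8895 and 163, males 9506 and 397 of 15632). Without the mitochondrial genome it was 39.1% and 8.63% (females 3207 and 515, males 5265 and 1149 of 15451). Limma on TPM called 85.3% and 0.740% (females 10964 and 63, males 11106 and 127 of 13928). With library size alone, 17 collagens were higher and 1 lower (type IV 3 higher, 0 lower; fibrillar 0 lower; other 9 higher, 1 lower; females 10 higher, 1 lower; males 17 higher, 2 lower). With the mitochondrial genome left out and library size alone, 10 were higher and 4 lower (other 4 higher, fibrillar and type IV 0 lower, females 2 higher and 1 lower, males 3 lower). With limma on log2(TPM + 0.5), 21 were higher and 0 lower in every class and sex (fibrillar 8, type IV 3, other 10, females 17, males 19 higher), and 1 differed between KO males and KO females. Col18a1, Col3a1, Col4a5 and Col5a3 passed under all 27 alternatives and Col20a1 under 26, limma on TPM giving -0.26. Library size alone and limma on TPM called most genes higher. A higher call kept or a lower call lost under these settings therefore cannot show how firm the call is.

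Without a filter on low counts 4 were lower (fibrillar and type IV 0, females 1, males 3), beside 7.77% of 31074 genes (females 874, males 1816). With a mean of at least 1 TPM 3 were lower (type IV 0, other 2, males 2), beside 20.6% of 13928 genes (males 2435). Col4a3, Col9a3, Col23a1 and Col28a1 had a mean under 1 TPM and were not tested there. Length-scaled counts gave type IV 0 and females 1 lower, beside 18.2% of 15690 genes lower (females 1141). Counting multiplexins with type IV gave 2 type IV and 0 other collagens higher. Leaving out both mice with over 1% muscle marker counts, chosen after seeing the data, gave 0 fibrillar lower and 3 lower in males. Of 15771 genes, 16.9% were then called lower (males 2245). DESeq2 gave 2 other collagens higher, 1 interaction, and 3 and 4 collagens that differed between the sexes in WT and in KO mice. Beside these, it called 17.8% of 19599 genes higher, and 252 positive and 120 negative interactions among 14199 genes. For males against females it called 364 and 175 of 11796 genes in WT and 788 and 440 of 15402 in KO mice. In KO mice 1 collagen differed between the sexes without a filter, at a mean of at least 1 TPM, and with protein-coding transcripts alone. The same held without the muscle-rich mice. Among all genes, 228 were higher and 104 lower in KO males of 31074 without a filter. They were 372 and 201 of 13928 at 1 TPM and 272 and 146 of 13371 with protein-coding transcripts. Without the muscle-rich mice they were 120 and 60 of 15771.

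Some log2 differences changed sign. Under the 3 scalings above this was the shift common to all genes: relative to its median, 0 of 31 collagens changed sign with library size alone, 0 of 30 with the mitochondrial genome left out, and 2 of 24 (Col16a1 and Col26a1) with limma on TPM. With library size alone Col4a1 was at 0.41, Col4a2 0.39, Col4a4 0.086, Col5a2 0.35, Col6a6 0.50, Col7a1 0.086, Col8a1 0.23, Col11a2 0.32, Col13a1 0.54 and Col27a1 0.13. With the mitochondrial genome left out, Col4a1 was at 0.061, Col4a2 0.038, Col5a2 0.0099, Col6a6 0.15 and Col13a1 0.19. With limma on TPM, Col4a1 was at 0.75, Col4a2 0.77, Col5a2 0.72, Col7a1 0.17, Col8a1 0.45, Col11a2 0.69, Col13a1 0.66 and Col27a1 0.47. Col13a1 was at 0.039 without a filter, 0.031 without a term for sex and 0.0054 with DESeq2. Length-scaled counts gave Col16a1 -0.33 and Col26a1 -0.21, and leaving out the muscle-rich mice gave Col26a1 -0.32 and a Col3a1 main transcript share difference of -0.50. The log2 ratio difference of Col6a3/Col6a1 was 0.065 with protein-coding transcripts and 0.038 with estimated counts, which gave 0.023 for Col4a1/Col4a2.

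Without a single mouse, 4 to 10 collagens were higher (10 without S10, fibrillar 2 to 5, other 1 to 4, females 0 to 1, males 5 to 10), fibrillar and type IV collagens lower numbered 0 to 2 each, and 1 to 3 were lower in females and 3 to 5 in males. The fibrillar count was 2 without S03, S05, S07, S11 or S14, the female count 1 higher without S09, S10 or S14, and the number of type IV collagens lower was 2 without S03 or S06 and 0 without S13 or S15. WT mice differed between the sexes in 0 to 1 (1 without S05) and KO mice in 1 to 2 collagens (1 without S02, S08, S12 or S16). The log2 ratio difference spanned -0.055 to 0.0086 for Col4a1/Col4a2 and -0.35 to 0.51 for Col4a3/Col4a4, and the share difference -0.33 to 1.32 points for Col27a1 and -0.61 to 1.36 for Col3a1. Log2 fold changes spanned -0.11 to 0.040 for Col13a1, -0.023 to 0.16 for Col16a1, -0.020 to 0.56 for Col24a1, -0.11 to 0.29 for Col26a1, -0.014 to 0.21 for Col6a2 and -0.18 to 0.046 for Col6a6. The cause of the other changes was not tested, and low counts limit Col4a3, Col9a3, Col24a1 and Col26a1.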
